A study of Mus musculus with 12 samples.

Results

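The colon of Spdef knockout (KO) mice was set against the colon of wild type (WT) mice. The comparison holds 4 arrays, the 2 colon KO and the 2 colon WT arrays chosen by their titles, of 12 arrays in the series. The 2 colon arrays from mice heterozygous (HET) for Spdef serve as a further group, and the stomach arrays of the same genotypes are used for a few genes. All mice were 16 weeks old and of the C57BL/6 strain, and no treatment was given. The labels name the genotype as knockout and do not say which part of Spdef was deleted, whether the deletion was confined to a cell type, what the sex of the mice was, or whether the arrays of a group came from separate animals. The p-values therefore measure only the spread between these arrays.

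Spdef is an ETS family transcription factor of the intestinal secretory lineage. In the intestine it acts downstream of Atoh1 in the maturation of goblet cells, which make and secrete mucus, and it is known to act on genes of protein folding, glycosylation and secretion. The RNA came from flash frozen pieces of tissue and was read on Affymetrix HT Mouse Genome 430 arrays, on which a set of short probes reads each transcript. Every level below is log2(intensity + 16) after quantile normalization, so that a difference of 1 is a doubling of intensity plus offset and the differences of dim genes are understated. A gene was tested if it reached the 40th percentile of the arrays, a level of 6.53 (an intensity of 76.5), in at least 2 colon arrays. A gene is said to be called where limma, fitted over the arrays of all groups, gave an adjusted p under 0.05 (Benjamini-Hochberg). A difference "against both WT arrays" is taken from their mean. A difference marked "at least" was taken against 6.53 because the mean of 1 group lay below that level. In bulk tissue, fewer cells of a type and less RNA per cell cannot be told apart.

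The arrays differed within groups. The number of genes at least 1 log2 unit apart between the 2 arrays of a group was 1099 in KO, 405 in HET and 1915 in WT, of 11807 genes. The mean correlation across genes with the other colon arrays was 0.966 and 0.954 for KO 1 and KO 2, 0.968 for each HET array, 0.964 for WT 1 and 0.927 for WT 2. The array labelled WT 2 carried transcripts of the small intestine: of the 15 small intestine genes tested, the mean level was 8.32 and 7.10 in KO, 8.02 and 8.24 in HET, 8.59 in WT 1 and 12.92 in WT 2. For many genes the difference is therefore also given against WT 1 alone, in a fit from which WT 2 was left out. That fit has 1 WT array, which is taken to vary like the other groups. WT 1 is in turn the only colon array whose processing note names RMA, where the notes of the other 5 colon arrays name MAS5. The mean deposited intensity with the lowest and highest 2% of probe sets left out was nevertheless the same in all 6, between 500.07 and 500.09. KO 2 stood apart in Xist, the transcript that silences one X chromosome in female cells, which lay at 12.86 in KO 1 and 5.70 in KO 2, at 12.74 and 12.64 in HET and at 12.53 and 12.34 in WT. In stomach, too, Xist was low in KO 2, at 12.77 in KO 1 and 7.49 in KO 2, against 12.46 to 12.71 in the HET and WT arrays. The labels do not say whether arrays of like number came from 1 mouse, and the tests between the tissues took them as unrelated. The other 3 sex-linked genes on the array, Kdm5d, Eif2s3y and Uty, were below the filter level in all colon arrays.

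Serum amyloid A transcripts rose in KO colon, while Creb3l4 and Cgref1 fell, and these were the 4 genes called against both WT arrays. Of 7913 genes tested, 2 were called higher (0.0253%) and 2 lower (0.0253%), and 885 had an unadjusted p under 0.05. The median difference over all tested genes was 0.06. Of all tested genes 57.4% were higher in KO than the mean of both WT arrays, and 53.2% were higher than WT 1 alone. These shares are the background for the counts in each direction given for gene lists below. No such share is given here for the comparisons with HET or with WT 2, and counts against them are given for some lists only. Against WT 1 alone, 3 of 7824 genes were called higher (0.0383%) and 21 lower (0.268%), with 969 at an unadjusted p under 0.05 and a median of 0.02. The 4 genes called against both WT arrays were among these 24.

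**Figure D1:**
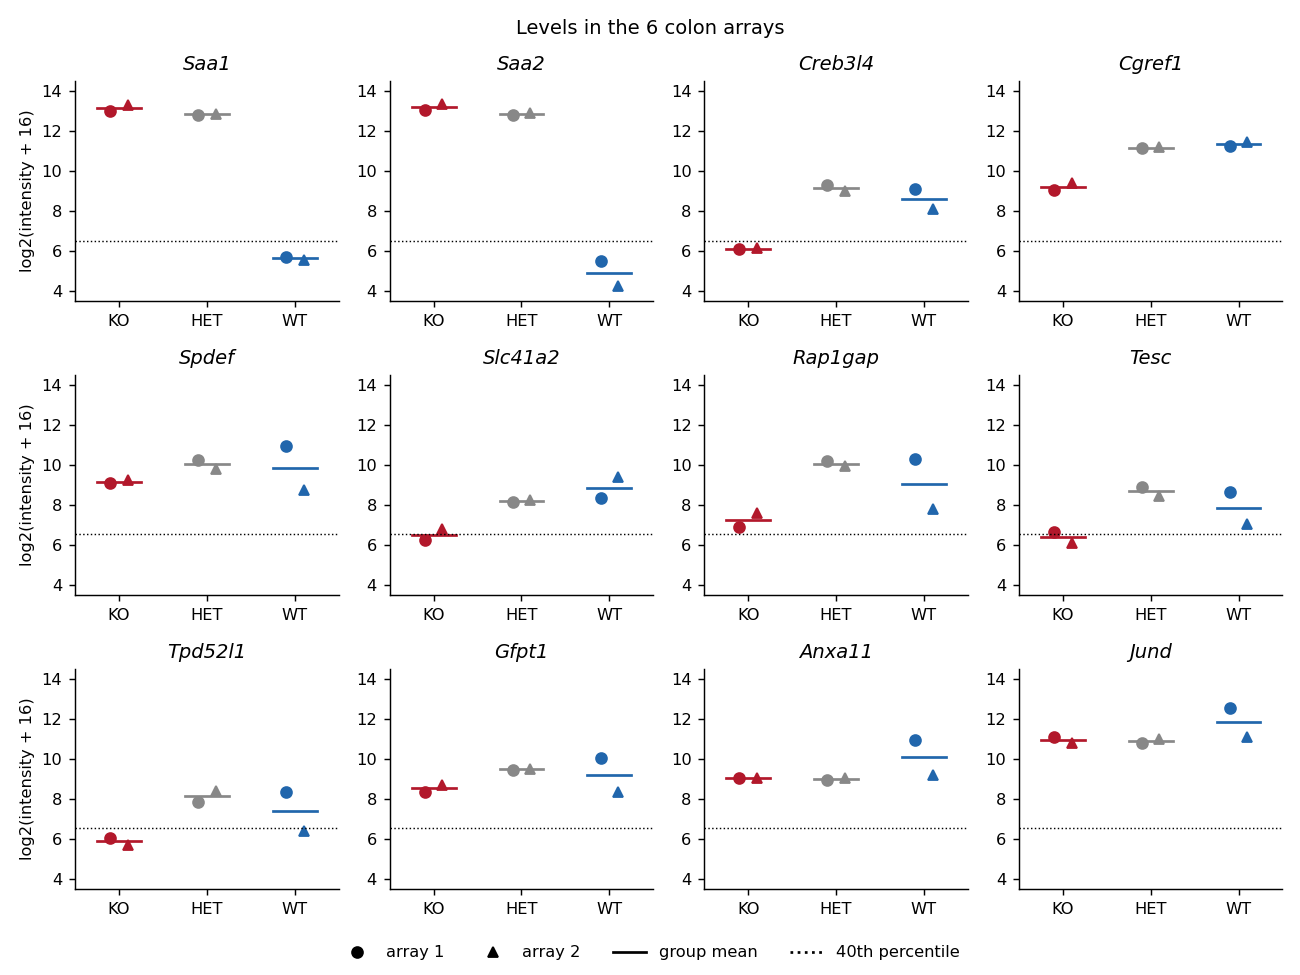
Level of 12 genes in each of the 6 colon arrays, as log2(intensity + 16), with KO left, HET in the middle and WT right. Circles are array 1, triangles array 2, short lines group means and the dotted line the 40th percentile (6.53). Saa1 and Saa2 are high in KO and HET, Creb3l4 and Cgref1 are low in KO only, and in Rap1gap, Tesc and Tpd52l1 the WT 2 triangle lies nearer the KO arrays than the WT 1 circle does.

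The targeted gene was read by 1 probe set. Spdef lay at 9.08 and 9.25 in KO, 10.27 and 9.81 in HET, 10.97 in WT 1 and 8.74 in WT 2. Both KO arrays were below the HET arrays and WT 1 and above WT 2, so the KO and WT groups overlapped. The KO minus WT difference was -0.69 (SE 0.55, adjusted p = 0.618 in limma) against both WT arrays and -1.80 (SE 0.23, adjusted p = 0.0105) against WT 1 alone. Where the probes lie relative to the deleted part is not given in the sources used here, so the signal in KO checks no label.

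Saa1 and Saa2 encode serum amyloid A, secreted apolipoproteins of the acute phase response that the mouse colon epithelium makes when it meets microbes and cytokines. The genes lie close together on chromosome 7 (GRCm38.p6), Saa1 on the minus strand at 46740497 to 46743181 and Saa2 on the plus strand at 46751833 to 46754313. Saa1 lay at 13.01 and 13.28 in KO, 12.82 and 12.87 in HET and 5.73 and 5.56 in WT. Saa2 lay at 13.08 and 13.34 in KO, 12.82 and 12.90 in HET and 5.53 and 4.26 in WT. The WT arrays were below the filter level and every KO and HET array was far above it, with no overlap. In the deposited intensities Saa1 read 8109.8 and 9001.6 in KO, 7190.5 and 6579.2 in HET and 45.2 and 29.4 in WT. The KO mean of Saa1 was higher than the WT mean by at least 6.61, or at least 97.8-fold (adjusted p = 0.00049), and that of Saa2 by at least 6.68, or at least 102-fold (adjusted p = 0.00049). The bounds against WT 1 alone were the same, 6.61 for Saa1 and 6.68 for Saa2. The probe sets of these paralogs may read each other's transcripts, so they are not independent measurements. A second probe set listed for Saa2 read 8.58 and 9.21 in KO, 8.84 and 8.84 in HET and 5.32 and 5.47 in WT.

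The levels of Saa1 and Saa2 did not differ between KO and HET beyond the threshold. The KO minus HET difference was 0.30 (SE 0.52) for Saa1 and 0.35 (SE 0.58) for Saa2, each with an adjusted p of 0.998. In the comparison of HET with both WT arrays these 2 genes were the only ones called higher (0.0253% of 7913), at adjusted p = 0.000718 each, and none was called lower (0%). The KO and HET comparisons share the WT arrays. In stomach both genes were below the filter level in all 6 arrays, between 4.05 and 5.94, and were not tested within that tissue. Across the genes tested in either tissue, the KO minus WT difference was called higher in colon than in stomach for Saa1 and Saa2 alone (0.0238% of 8393). None was called lower (0%). Saa3, a further member of the family, lay at 8.79 and 6.92 in KO, 8.18 and 6.74 in HET and 6.21 and 5.89 in WT, a difference of at least 1.32 that was not called (adjusted p = 0.417). Its arrays within KO and within HET were further apart than KO 2 was from WT 1.

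The 250 bases before a listed transcript start of Saa1 (chr7:46742981-46743230, minus strand) and Saa2 (chr7:46751583-46751832, plus strand), from RefSeq on GRCm38.p6, are printed because the genes moved together and these stretches are near copies, with 238 of 250 bases identical. The Saa1 start is an internal one, so that 201 of its 250 bases lie within the span of the gene given above. Capitals mark bases that differ or were not matched between them.
Saa1: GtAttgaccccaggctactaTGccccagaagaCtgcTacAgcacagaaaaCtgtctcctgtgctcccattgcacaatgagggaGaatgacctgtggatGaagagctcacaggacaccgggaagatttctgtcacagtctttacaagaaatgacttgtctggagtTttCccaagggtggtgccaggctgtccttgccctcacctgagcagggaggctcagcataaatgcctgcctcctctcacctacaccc
Saa2: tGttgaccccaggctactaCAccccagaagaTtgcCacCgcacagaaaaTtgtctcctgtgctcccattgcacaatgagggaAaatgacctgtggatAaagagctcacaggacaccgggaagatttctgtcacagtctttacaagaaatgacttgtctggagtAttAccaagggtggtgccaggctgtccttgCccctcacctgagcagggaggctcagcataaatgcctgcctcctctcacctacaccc

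Creb3l4 and Cgref1 were lower in both KO arrays than in the other 4 colon arrays. Creb3l4 encodes a transcription factor of the CREB3 family, which is anchored in the membrane of the endoplasmic reticulum (ER) and released by cleavage. It lay at 6.09 and 6.16 in KO, 9.30 and 9.02 in HET and 9.12 and 8.11 in WT. Both KO arrays were below the filter level and every HET and WT array was above it. KO fell below the mean of WT by at least 2.08, or at least 4.24-fold (adjusted p = 0.046), below WT 1 by at least 2.59 (adjusted p = 0.00218), and below the mean of HET by at least 2.63 (adjusted p = 0.0177). In stomach, too, Creb3l4 was called lower in KO, at 5.20 and 5.84 in KO, 8.54 and 8.54 in HET and 8.66 and 8.60 in WT (adjusted p = 0.0228), and the test of the difference between the tissues gave 0.62 (SE 0.45, adjusted p = 0.887). The call against both WT arrays was lost in 11 of 15 alternative settings, with adjusted p between 0.00201 and 0.783.

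Cgref1 encodes a secreted protein with EF-hand motifs, which bind calcium. It lay at 9.04 and 9.40 in KO, 11.15 and 11.19 in HET and 11.23 and 11.44 in WT. The KO arrays lay below the other 4 arrays, which were close together. The difference was -2.11 (SE 0.18, adjusted p = 0.00225) against both WT arrays, -2.01 (SE 0.22, adjusted p = 0.00445) against WT 1 and -1.95 (SE 0.18, adjusted p = 0.0135) against HET. A second probe set gave -2.52 against both WT arrays, with 8.56 and 9.42 in KO, 10.83 and 10.75 in HET and 11.45 and 11.58 in WT. Creb3l4 and Cgref1 were the 2 genes called lower in KO than in HET (0.0253% of 7913), none was called higher (0%), and 328 genes had an unadjusted p under 0.05 in limma. HET did not differ from both WT arrays beyond the threshold for either gene, at adjusted p = 0.567 for Creb3l4 and 0.761 for Cgref1.

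The 250 bases before a listed transcript start of Creb3l4 (chr3:90243513-90243762, minus strand) and Cgref1 (chr5:30945481-30945730, minus strand), also from RefSeq on GRCm38.p6, are shown because these 2 genes were called lower in KO. The Creb3l4 start is an internal one, and all 250 bases lie within the span of the gene, which runs from 90237498 to 90244582. Capitals mark GGAT, a core found in sites of ETS factors such as Spdef, or ATCC, the same letters on the other strand. Each of these stretches holds 2 matches, those of Saa1 and Saa2 above hold 1 each, left unmarked there, and 74.1% of 32851 promoter stretches of the same length hold at least 1 on either strand, so the matches are a description of these letters only.
Creb3l4: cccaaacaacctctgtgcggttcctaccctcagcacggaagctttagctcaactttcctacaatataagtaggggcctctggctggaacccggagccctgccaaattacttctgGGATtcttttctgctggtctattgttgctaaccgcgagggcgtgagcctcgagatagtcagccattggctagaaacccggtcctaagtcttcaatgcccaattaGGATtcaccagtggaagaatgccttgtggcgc
Cgref1: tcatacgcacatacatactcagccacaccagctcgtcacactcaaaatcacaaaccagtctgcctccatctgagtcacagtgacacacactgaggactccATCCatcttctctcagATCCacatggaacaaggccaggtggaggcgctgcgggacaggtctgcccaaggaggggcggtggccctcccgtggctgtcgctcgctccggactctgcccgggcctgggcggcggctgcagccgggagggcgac

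An order of arrays that does not rest on the WT mean gave a short list. Of 11807 genes, 7 had both KO arrays below all 4 other colon arrays by at least 1 (0.0593%) and 1 had them above (0.00847%). Besides Creb3l4 and Cgref1 the lower genes were Slc41a2, a magnesium transporter, St6galnac1, Retn, the prostaglandin F receptor gene Ptgfr, and Mrap, an accessory protein of the melanocortin 2 receptor. Slc41a2 lay at 6.25 and 6.79 in KO, 8.15 and 8.24 in HET and 8.33 and 9.41 in WT. Its difference was at least 2.34 below both WT arrays (adjusted p = 0.0611) and at least 1.79 below WT 1 (adjusted p = 0.031). St6galnac1, which adds sialic acid to the first sugar of mucin O-glycans, lay at 6.02 and 5.72 in KO, 8.25 and 7.64 in HET and 7.33 and 8.53 in WT, and was not called (adjusted p = 0.308 against both WT arrays). Retn, the adipokine resistin, lay at 6.75 and 5.14 in KO, 8.33 and 8.41 in HET and 7.95 and 8.66 in WT (adjusted p = 0.308). Against WT 1 alone the KO mean was lower by at least 0.79 for St6galnac1 and at least 1.42 for Retn. Ptgfr was below the filter level in all 6 arrays, and Mrap lay at 4.42 and 4.59 in KO, against 6.38 and 6.86 in HET and 5.61 and 7.37 in WT. The 1 gene higher, the cardiac myosin gene Myh7, was at 5.55 and 5.92 in KO and between 4.33 and 4.47 elsewhere, below the filter level throughout.

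The 24 genes called against WT 1 alone differed in where the HET arrays lay. In 12 the HET mean was nearer WT 1 and in the other 12 it was nearer KO. WT 2 was nearer KO than WT 1 in 18 of these genes, and in 9 both HET and WT 2 were nearer KO. WT 1 did not stand alone in all 9. In Spdef, Vegfb, Slc25a23 and Rad23b both HET arrays lay between the KO arrays and WT 1. In Slc25a23 the lower HET array was at 7.10 and the higher KO array at 7.09, and in Rad23b they were at 8.79 and 8.78. The HET mean of Spdef was almost midway, with KO minus HET at -0.87 and HET minus WT 1 at -0.93. In the alternative settings 13 of the 24 lost their call once. The other 11 lost it in 4 to 7 settings, with Gfpt1 and Vegfb at 7 of 13, Slc25a23 at 7 of 12, Ccl9, Elapor1 and Smim14 at 6 of 13, Optc at 6 of 12, Man1b1 and Cxcl14 at 5 of 13, and Slc41a2 and Snrnp40 at 4 of 13.

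**Figure D2:**
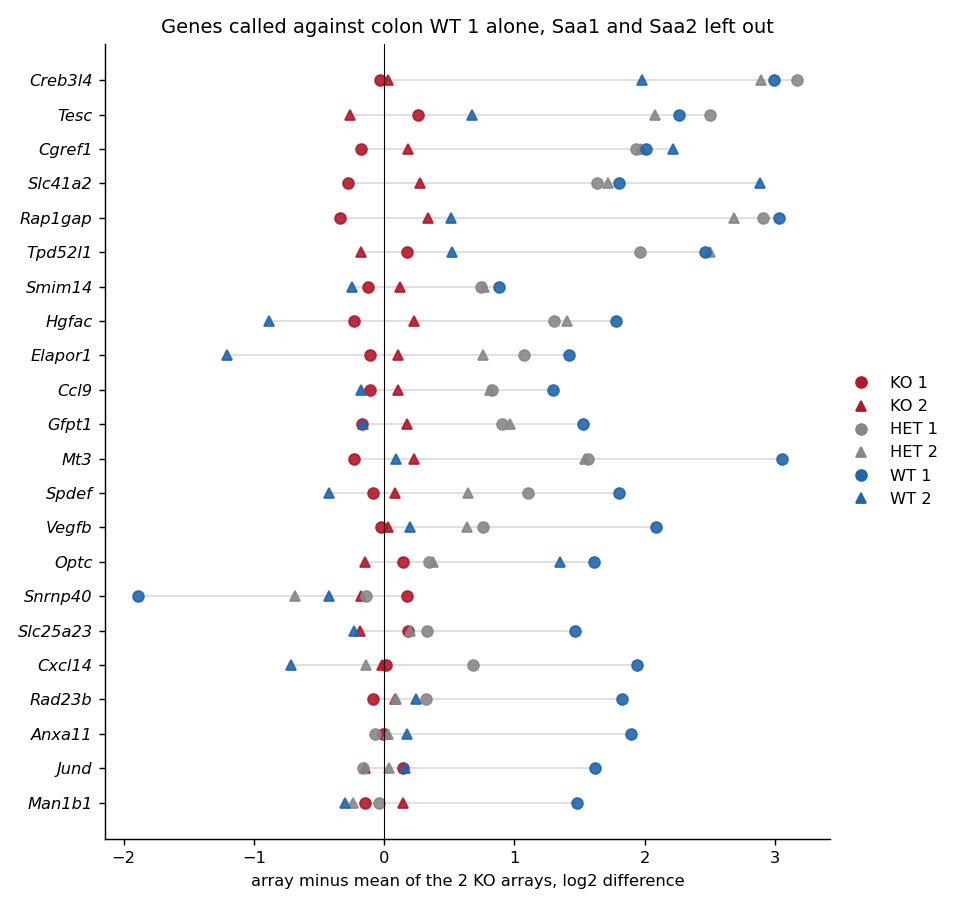
Each colon array minus the mean of the 2 KO arrays, in log2 units, for 22 genes called against WT 1 alone, Saa1 and Saa2 left out for their scale. Red is KO, grey HET and blue WT, with circles for array 1 and triangles for array 2. Genes are ordered by where HET lies between KO and WT 1, from Creb3l4 and Tesc at the top, with HET at the level of WT 1, to Man1b1 at the bottom, with HET at the level of KO.

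Beside Creb3l4, Cgref1 and Slc41a2, the genes with HET nearer WT 1 were the following. Rap1gap, which switches off the small GTPase Rap1, lay at 6.92 and 7.60 in KO, 10.17 and 9.95 in HET, 10.29 in WT 1 and 7.78 in WT 2, a difference of -3.03 from WT 1 (SE 0.26, adjusted p = 0.00173). Tesc, the calcium-binding protein tescalcin, lay at 6.65 and 6.13 in KO, 8.89 and 8.47 in HET, 8.66 in WT 1 and 7.07 in WT 2, and was lower than WT 1 by at least 2.13 (adjusted p = 0.00445). Tpd52l1, a member of the tumor protein D52 family, lay at 6.06 and 5.71 in KO, 7.85 and 8.39 in HET, 8.35 in WT 1 and 6.41 in WT 2, lower than WT 1 by at least 1.82 (adjusted p = 0.00445). In these 3 genes both KO arrays were below all other colon arrays, and WT 2 was the nearest to them. None of them was called against HET (adjusted p from 0.925 to 0.998).

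Gfpt1, the first enzyme of the hexosamine pathway that supplies sugars for glycoproteins, lay at 8.35 and 8.70 in KO, 9.43 and 9.49 in HET, 10.05 in WT 1 and 8.36 in WT 2 (-1.53 from WT 1, adjusted p = 0.0362). Elapor1, a membrane protein of the endosome and lysosome system, lay at 10.25 and 10.47 in KO, 11.44 and 11.12 in HET, 11.78 in WT 1 and 9.15 in WT 2 (-1.42 from WT 1, adjusted p = 0.0362). The chemokine gene Ccl9 lay at 8.95 and 9.16 in KO, 9.89 and 9.87 in HET, 10.35 in WT 1 and 8.88 in WT 2 (-1.30 from WT 1, adjusted p = 0.0354). In Gfpt1 and Ccl9 WT 2 read at the level of KO, and in Elapor1 it was below both KO arrays. Hgfac, the protease that activates hepatocyte growth factor, differed from WT 1 by -1.78, with KO at 9.71 and 10.17, HET at 11.24 and 11.34, WT 1 at 11.72 and WT 2 at 9.05. With WT 1 left out, Elapor1 and Hgfac were called higher in KO than in WT 2, by 1.21 (adjusted p = 0.00803 in limma) and 0.88 (adjusted p = 0.0245), so each was called in opposite directions against the 2 WT arrays. The metallothionein Mt3, a metal-binding protein, was lower than WT 1 by at least 2.16 (adjusted p = 0.00445), with 5.40 and 5.86 in KO, 7.19 and 7.17 in HET, 8.69 in WT 1 and 5.72 in WT 2. Smim14, a small membrane protein, differed by -0.88 on the probe set used and by -0.36 on a second one.

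In 9 of the genes with HET nearer KO, WT 2 was nearer KO too. Spdef was among them, with both HET arrays above both KO arrays. Anxa11, a calcium-dependent phospholipid-binding annexin, lay at 9.02 and 9.04 in KO, 8.96 and 9.06 in HET, 10.93 in WT 1 and 9.20 in WT 2 (-1.90 from WT 1, adjusted p = 0.00445). Jund, an AP-1 transcription factor, lay at 11.07 and 10.78 in KO, 10.77 and 10.97 in HET, 12.55 in WT 1 and 11.09 in WT 2 (-1.62). Rad23b, which takes part in DNA repair, and Man1b1, an ER mannosidase, also had WT 1 highest, with 10.52 and 9.26 against at most 9.02 and 7.93 in the other arrays. In all 4 genes WT 1 was higher than the other 5 colon arrays, and the same 4 were the genes called lower in HET than in WT 1 (0.0511% of 7824), beside Saa1 and Saa2 called higher (0.0256%). Snrnp40, a component of the spliceosome, was the 1 gene beside Saa1 and Saa2 called higher in KO than in WT 1, by 1.89, and its second probe set gave -0.0036. Cxcl14, Vegfb and Slc25a23 differed by -1.94, -2.09 and -1.46, each with WT 1 highest of the 6 arrays.

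Beside Saa1 and Saa2, Optc was the exception among the genes with HET nearer KO. It encodes opticin, a small leucine-rich extracellular matrix protein, and lay at 6.59 and 6.30 in KO, 6.79 and 6.82 in HET and 8.06 and 7.80 in WT. Here both WT arrays were above all KO and HET arrays, with a difference of at least 1.53 below WT 1 (adjusted p = 0.0393) and at least 1.40 below both WT arrays (adjusted p = 0.0611).

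**Figure D3:**
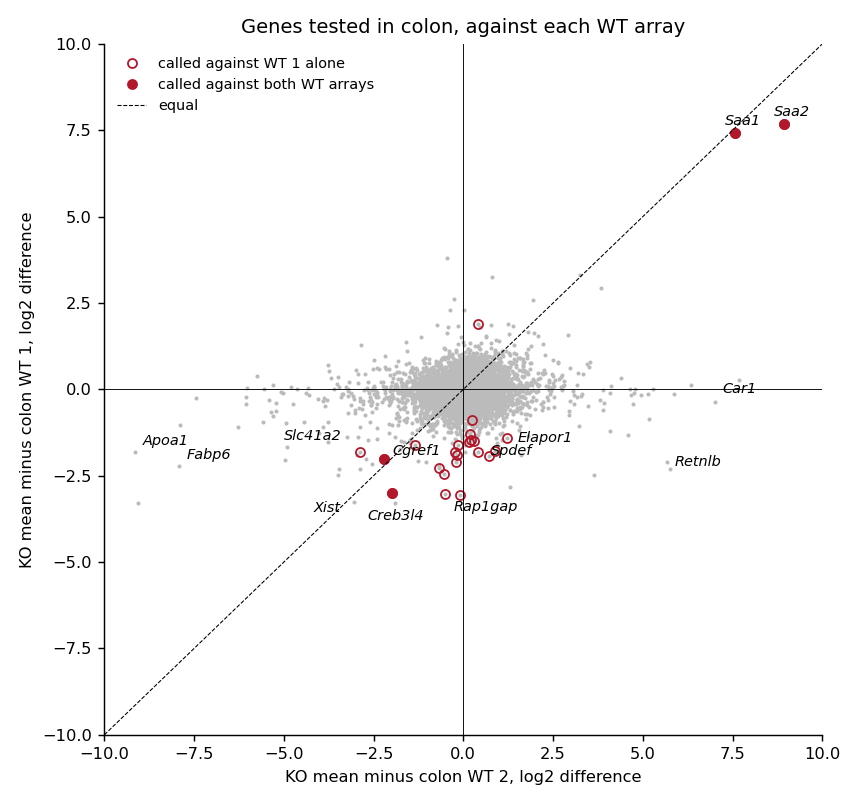
KO mean minus WT 2 (x axis) and KO mean minus WT 1 (y axis), in log2 units, for the genes tested in colon. Filled circles are the 4 genes called against both WT arrays, open circles further genes called against WT 1 alone, and the dashed line marks equal differences. Saa1, Saa2, Creb3l4 and Cgref1 lie near the line, while Apoa1 and Fabp6 of the small intestine and Car1 of the colon lie along the x axis because WT 2 differs from the other arrays in them.

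No further gene passed against both WT arrays, and the next in order of p are given as values. Homer2, a scaffold protein of synapses and signalling complexes, lay at 10.92 and 10.37 in KO, 10.04 and 10.14 in HET and 9.10 and 8.57 in WT (1.81, adjusted p = 0.151). Itih5, a hyaluronan-binding protein, lay at 10.98 and 11.03 in KO, 10.88 and 10.76 in HET and 10.20 and 9.73 in WT (1.04, adjusted p = 0.228). Fbln1, an extracellular matrix fibulin, lay at 8.97 and 8.85 in KO, 9.14 and 9.30 in HET and 9.87 and 10.10 in WT (-1.08, adjusted p = 0.133), with -0.30 on a second probe set. In all 3 the HET arrays were nearer KO than WT and the groups KO and WT did not overlap. The others were Cenpa, a centromeric histone (1.05), Guk1, a guanylate kinase (-0.87), Pop4, a subunit of ribonuclease P (-1.01), and the ribosomal protein gene Rpl8 (0.44), at adjusted p from 0.251 to 0.308. Pop4 lay at 6.89 and 6.83 in KO, 6.91 and 7.03 in HET and 7.72 and 8.03 in WT. In Pop4 and Rpl8 the HET mean was nearer KO, and in Cenpa and Guk1 it was nearer WT. From WT 1 alone the differences were 1.55 for Homer2, 0.80 for Itih5 and -0.96 for Fbln1. They were 1.02 for Cenpa, -0.99 for Guk1, -0.86 for Pop4 and 0.40 for Rpl8.

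Of the 38 genes of the goblet cell list, 31 were on the arrays and tested. Of these, 22 were lower in KO than the mean of both WT arrays, with a median of -0.18 beside 0.06 over all tested genes. Against WT 1 alone 26 of 31 were lower, with a median of -0.62 beside 0.02. Creb3l4, Spdef and Ccl9, described above, are members of the list. It holds the targeted gene itself and was chosen with earlier results of these data known, so their presence in it tests nothing about goblet cells. The KO arrays differed from each other here. Against WT 1, 27 of 31 genes were lower in KO 1, with a median of -1.31, and 20 of 31 in KO 2, with a median of -0.05. The mean level of the list was 9.95 and 10.83 in KO, 10.97 and 11.09 in HET, 11.24 in WT 1 and 9.999 in WT 2. Against WT 2 the median was 0.26, with 12 of 31 genes lower. Against HET the median was -0.35, with 26 of 31 genes lower.

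The abundant mucus layer products that were read were not called. The mucin gene Muc2, a member of the list, had no probe set assigned to it alone and was not read. Zg16, a lectin-like protein that binds bacteria, lay at 14.01 and 14.12 in KO, 14.11 and 14.21 in HET and 14.23 and 14.30 in WT, and on a second probe set at 13.06 and 13.90 in KO, 13.73 and 13.82 in HET and 13.73 and 14.12 in WT. Tff3, the trefoil peptide of goblet cells, lay at 13.66 and 13.78 in KO, 13.64 and 13.69 in HET and 13.80 and 13.90 in WT. Fcgbp, a mucus component that binds IgG, lay at 12.66 and 13.97 in KO, 13.22 and 13.77 in HET and 13.97 and 13.72 in WT. Clca1, a secreted protease of mucus, lay at 13.75 and 14.05 in KO, 13.80 and 13.96 in HET and 14.25 and 13.91 in WT. Agr2, a disulfide isomerase needed for mucin folding, lay at 13.18 and 13.72 in KO, 13.74 and 13.78 in HET and 13.77 and 13.29 in WT. In Fcgbp, Clca1, Agr2 and both Zg16 probe sets KO 1 was the lowest of the 6 arrays and KO 2 lay within the range of the others. Tff3 did not have this order, nor did a second Clca1 probe set, at 9.43 and 11.53 in KO and 9.25 in WT 2. Levels near 14 are those of the brightest probe sets on the arrays, and whether intensity still follows the amount of transcript there was not tested. The antimicrobial peptide Retnlb lay at 10.40 in KO 1 and 14.21 in KO 2, 13.71 and 14.06 in HET, 14.42 in WT 1 and 6.62 in WT 2. Muc1, a membrane mucin, lay at 4.34 and 6.50 in KO, 5.57 and 7.76 in HET, 8.24 in WT 1 and 4.11 in WT 2. Foxa3, a transcription factor of secretory cells, lay at 8.47 and 9.29 in KO, 9.59 and 9.55 in HET, 10.29 in WT 1 and 8.57 in WT 2 (-1.41 from WT 1, adjusted p = 0.114). Atoh1, the factor that starts the secretory lineage, lay at 10.06 and 10.78 in KO, 10.55 and 10.86 in HET and 10.24 and 9.72 in WT. Of the 9 genes with levels given here none was called.

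**Figure D4:**
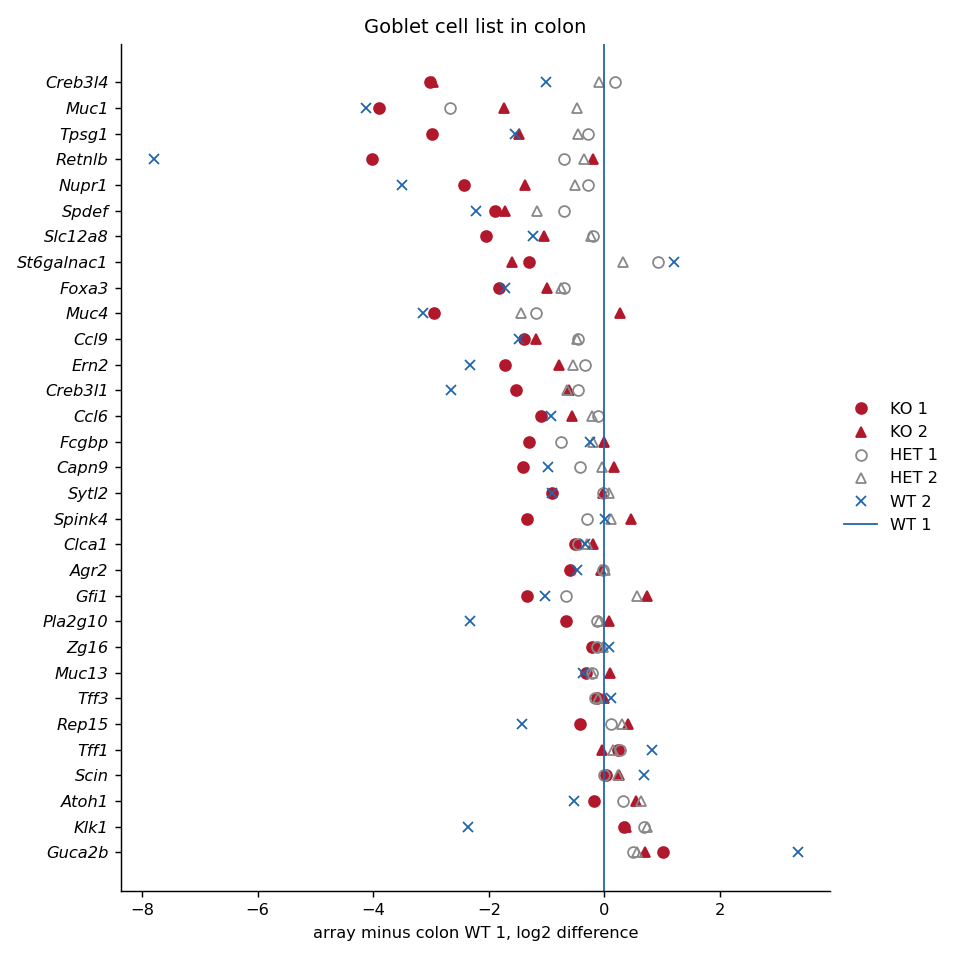
The 31 tested genes of the goblet cell list in each colon array, as the log2 difference from WT 1 (vertical line). Red symbols are KO 1 (circles) and KO 2 (triangles), open grey symbols HET 1 and HET 2, and blue crosses WT 2. KO 1 lies left of the line in 27 of 31 genes, while KO 2 lies near it for most genes other than Creb3l4, Spdef, St6galnac1, Ccl9 and a few more.

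The list of ER secretory machinery and unfolded protein response had a median of -0.09 over 53 genes against both WT arrays and -0.10 over 52 genes against WT 1. Creb3l4, 1 of the 2 genes called lower of all 7913 tested against both WT arrays (0.0253%), was the only member called there. Elapor1 differed from WT 1 by -1.42. KO 1 was lower than WT 1 in 46 of 52 genes (median -0.48) and KO 2 in 17 of 52 (median 0.20). The KO mean was lower than HET in 37 of 53 genes (median -0.10). The chaperone Hspa5 lay at 11.66 and 13.05 in KO, 12.40 and 12.60 in HET and 12.50 and 12.55 in WT. Xbp1, a transcription factor of the unfolded protein response, lay at 12.16 and 12.86 in KO, 12.60 and 12.62 in HET and 12.47 and 12.39 in WT. In both genes the HET and WT arrays lay between the 2 KO arrays.

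Of the 37 genes of mucin O-glycan and hexosamine synthesis, 16 were lower than the mean of both WT arrays (median 0.04, beside 0.06 over all tested genes). Lower than WT 1 were 29 (median -0.37, beside 0.02), among them Gfpt1 at -1.53. Lower than HET were 30 (median -0.26). The sialyltransferase gene St3gal4 lay at 6.17 and 8.21 in KO, 8.62 and 8.59 in HET and 9.26 and 8.45 in WT (adjusted p = 0.273 against WT 1). Galnt6, which starts O-glycan chains, lay at 8.55 and 7.98 in KO, 9.001 and 8.965 in HET and 9.18 and 9.42 in WT. In St3gal4, Galnt6 and St6galnac1 both KO arrays lay below all HET and WT arrays, and none of the 3 was called. The share of all tested genes with that order is not given here, so the order is no result about the list.

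The other ETS factors did not differ beyond the threshold. Of 15 tested ETS family genes, Spdef included, 11 were higher in KO than the mean of both WT arrays, where 57.4% of all tested genes were. The median was 0.26, beside 0.06 over all tested genes. Higher than WT 1 were 9, where 53.2% of all tested genes were, and 10 were higher than WT 2. The largest difference from WT 1 in the list was that of Spdef (-1.80). Ehf, an epithelial ETS factor, lay at 11.40 and 11.49 in KO, 11.67 and 11.47 in HET and 11.74 and 10.19 in WT. Elf3, another, lay at 10.998 and 11.286 in KO, 10.92 and 11.11 in HET and 11.46 and 10.64 in WT. Of the 18 secretory lineage and Notch pathway genes none was called. The Notch target Hes1 lay at 8.94 and 8.39 in KO, 8.88 and 9.19 in HET and 7.61 and 7.77 in WT (0.97, adjusted p = 0.308). The WT arrays were the lowest 2 in Hes1.

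Of 20 tested genes of acute phase and epithelial defence, Saa1 and Saa2 were the only ones called against both WT arrays. They were also the only genes called higher there of all 7913 tested (0.0253%). The lectin Reg3g, which kills Gram-positive bacteria, lay at 12.89 and 10.77 in KO, 11.52 and 11.20 in HET and 13.21 and 13.73 in WT, and the related Reg3b lay at 13.75 and 12.85 in KO, 13.27 and 12.52 in HET and 14.05 and 14.16 in WT. In both genes the WT arrays were higher than every KO and HET array. Lcn2, the siderophore-binding lipocalin of the acute phase, lay at 6.61 and 6.45 in KO, 7.28 and 7.27 in HET and 6.15 and 6.50 in WT. Nfkbiz, a regulator of NF-kappaB targets, lay at 10.39 and 11.81 in KO, 10.40 and 10.57 in HET and 9.94 and 9.31 in WT. The median of the list was 0.19 against both WT arrays and 0.18 against WT 1.

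Proliferation genes were higher in KO colon in most cases, with no member called. Of 33 tested genes 29 were higher than the mean of both WT arrays and, of 32 tested, 28 were higher than WT 1, with a median of 0.53 in each comparison, and 31 were higher than HET with a median of 0.61. The mean level of the list was 8.33 and 8.93 in KO, 8.07 and 8.17 in HET and 8.15 and 8.11 in WT. Cenpa lay at 8.55 and 8.63 in KO, 7.89 and 8.05 in HET and 7.57 and 7.52 in WT, and the mitotic cyclin Ccnb2 at 9.28 and 9.25 in KO, 8.53 and 8.46 in HET and 8.35 and 8.40 in WT (0.89, adjusted p = 0.32). In both genes the KO arrays were above the other 4. Mki67, a marker of cycling cells, lay at 10.09 and 10.94 in KO, 9.67 and 9.72 in HET and 9.71 and 9.46 in WT. Against WT 1 the median was 0.31 for KO 1 and 0.80 for KO 2.

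Markers of B cells, myeloid cells and MHC class II had their highest mean level in KO 2. All 8 tested B and plasma cell genes were higher than the mean of both WT arrays (median 0.93), and 5 of 8 were higher than WT 2 (median 0.13). The mean level was 7.76 in KO 1, 9.16 in KO 2, 7.72 and 7.35 in HET, 7.13 in WT 1 and 8.23 in WT 2. Ms4a1, the B cell surface protein CD20, lay at 6.64 and 8.73 in KO, 6.03 and 5.13 in HET, 5.08 in WT 1 and 7.94 in WT 2. Of the myeloid genes all 13 were higher than the mean of both WT arrays (median 0.48) and 12 of 13 higher than WT 2, with mean levels of 8.13 and 8.51 in KO, 8.26 and 7.79 in HET and 7.72 and 7.88 in WT. All 7 MHC class II genes were higher than the mean of both WT arrays (median 0.33) and 4 of 7 higher than WT 2 (median 0.20), with mean levels of 8.80 and 9.47 in KO, 9.01 and 8.42 in HET and 8.30 and 9.10 in WT. No member of these lists was called. Of the T and NK cell genes 4 were tested, 2 in each direction against the mean of both WT arrays, and none reached the filter without WT 2. Of 19 interferon response genes 17 were lower than the mean of both WT arrays (median -0.29), 17 lower than WT 2 (median -0.44) and 10 lower than WT 1 (median -0.11).

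**Figure D5:**
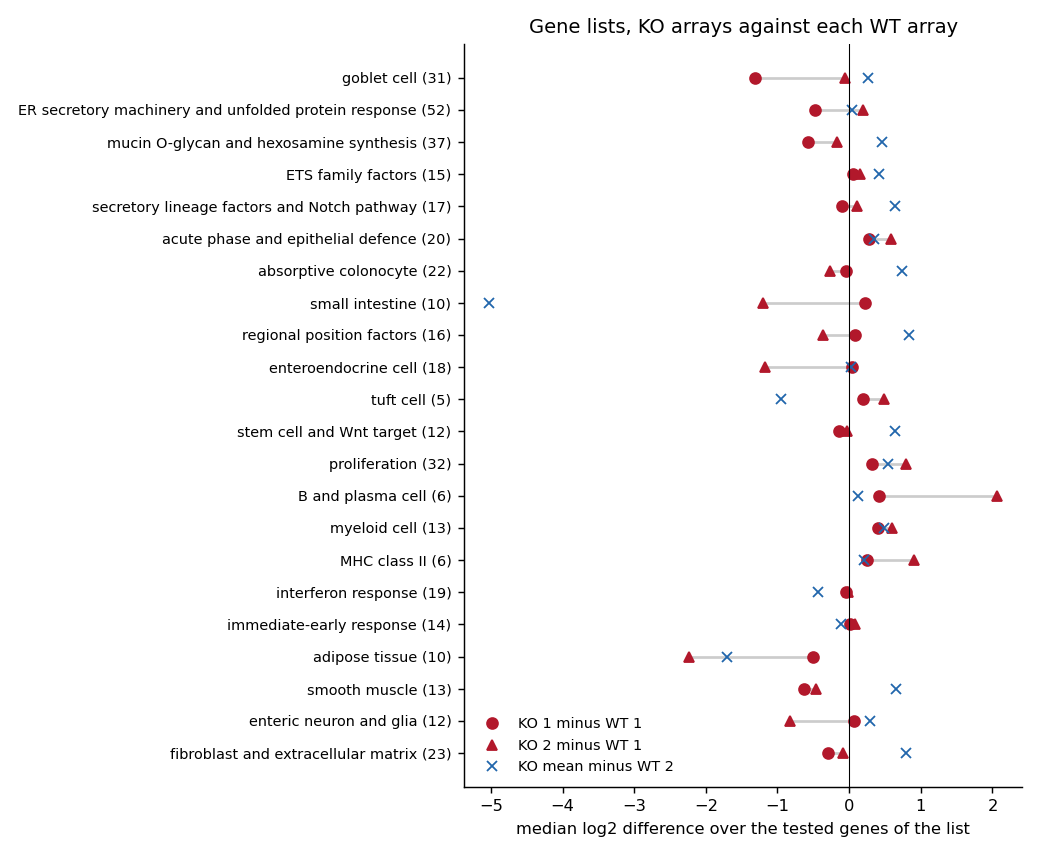
Median log2 difference over the tested genes of each list with at least 5 genes tested against WT 1 (number in brackets). Red circles are KO 1 minus WT 1, red triangles KO 2 minus WT 1, and blue crosses the KO mean minus WT 2. The goblet cell median lies at -1.31 for KO 1 and -0.05 for KO 2, the adipose median at -0.50 and -2.23, and the B and plasma cell median at 0.41 and 2.06. Ms4a1 and Cd79a, members of the B and plasma cell list, reached the filter without WT 2 only in the KO arrays. Their direction above WT 1 was thus fixed by the filter.

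Tissue outside the epithelium differed between the arrays as well. Of 10 adipose genes 9 were lower than the mean of both WT arrays (median -1.66), 9 lower than WT 1 (median -1.33) and 9 lower than WT 2 (median -1.70). Their mean level was 9.43 and 7.63 in KO, 9.91 and 10.15 in HET and 9.81 and 10.08 in WT. Adipoq, the adipocyte hormone adiponectin, lay at 10.81 and 7.34 in KO, 11.28 and 11.75 in HET and 11.23 and 11.62 in WT. Retn, described above, is a member of this list, and the part of adipose content in its difference was not tested. The 4 tested exocrine pancreas genes had a mean level of 9.19 and 12.11 in KO, 10.04 and 11.63 in HET, 11.05 in WT 1 and 8.34 in WT 2. All 13 smooth muscle genes were lower than WT 1 (median -0.52), 5 of 13 were lower than the mean of both WT arrays (median 0.05), and 2 of 13 were lower than WT 2 (median 0.65). Of 12 enteric neuron and glia genes all were lower than HET (median -0.71), and against WT 1 the median was 0.06 for KO 1 and -0.82 for KO 2. Of the 23 fibroblast and extracellular matrix genes 6 were lower than the mean of both WT arrays (median 0.28) and 19 lower than WT 1 (median -0.17).

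Several genes known to vary along the bowel differed between arrays of the same genotype. The labels give no site of sampling within the colon. Hoxb13, a Hox gene of the most distal gut, lay at 4.31 in KO 1 and 10.81 in KO 2, 4.39 and 8.24 in HET and 4.24 and 4.31 in WT. Hoxb6 lay at 9.73 and 5.91 in KO, 9.50 and 8.53 in HET and 8.79 and 8.18 in WT. Slc10a2, the bile acid transporter, lay at 10.78 and 4.26 in KO, 10.61 and 10.18 in HET and 9.56 and 12.48 in WT, and the hormone Nts at 11.76 and 7.01 in KO, 12.15 and 11.54 in HET and 11.86 and 12.87 in WT. KO 2 was the highest array in Hoxb13 and the lowest in Hoxb6, Slc10a2 and Nts. The posterior Hox genes went both ways between the KO arrays. Hoxa9, Hoxa10, Hoxa11 and Hoxa13 were higher in KO 2 than in KO 1, as Hoxb13 was, with Hoxa10 at 7.74 and 9.51 and Hoxa13 at 5.01 and 7.17. Hoxb9, Hoxd9 and Hoxd10 went the other way. Hoxd10 lay at 7.12 and 5.40 in KO, 7.29 and 6.68 in HET and 6.87 and 4.96 in WT. Hoxd9 lay at 7.602 and 5.505 in KO, 7.527 and 6.602 in HET and 6.87 and 6.03 in WT. These genes were picked with their values in view, and the part of the site of sampling in the differences of KO 2 was not tested.

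Of 22 absorptive colonocyte genes 8 were lower than the mean of both WT arrays (median 0.19) and 17 lower than WT 1 (median -0.19), with none called. Car1, the carbonic anhydrase of colonocytes, lay at 13.82 and 13.50 in KO, 13.97 and 13.93 in HET, 14.01 in WT 1 and 6.65 in WT 2, high in every colon array other than WT 2. Of 15 small intestine genes all were lower than the mean of both WT arrays (median -2.86), a mean that holds WT 2 with its small intestine transcripts. Apoa1, Anpep and Defa31 were below the filter level in every KO and HET array and passed it through the WT arrays alone. Their direction was thus fixed by the filter, and the count of 15 is no independent result. Without WT 2, 9 of the 10 tested were lower than WT 1 (median -0.35). Of 19 enteroendocrine genes 16 were lower than the mean of both WT arrays (median -0.22) and 9 lower than WT 2 (median 0.02). Against WT 1 their median was 0.04 for KO 1 and -1.18 for KO 2. Lower than HET were 18 of the 19 (median -0.85). Chga, the granule protein chromogranin A, lay at 10.71 and 7.88 in KO, 10.62 and 10.13 in HET and 10.17 and 8.67 in WT. The 6 tuft cell genes were all lower than the mean of both WT arrays (median -0.42) and lower than WT 2 (median -0.95), while 3 of the 5 tested without WT 2 were higher than WT 1 (median 0.09). Of the 13 stem cell and Wnt target genes 4 were lower than the mean of both WT arrays (median 0.20). Lgr5, the stem cell receptor, lay at 7.11 and 6.96 in KO, 7.02 and 6.99 in HET and 7.05 and 7.86 in WT. Of 14 immediate-early genes 7 were lower than the mean of both WT arrays (median -0.04), with none called there. Jund, described above, differed from WT 1 by -1.62. The median of the 16 tested regional position factors was 0.22 against both WT arrays and -0.34 against WT 1, with none called.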

How the data were processed

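Gene expression was measured on 12 one-colour Affymetrix arrays, 2 for each genotype in stomach and colon, 6 of them from colon. The authors deposited a linear intensity per probe set. Per the submitters' processing notes RMA was used for colon WT 1 and for the 2 stomach KO arrays, 3 in all, and MAS5 for the other 9, and no versions are named. Array medians in colon lay between 123 and 159, and the Actb 3' to 5' ratio between 1.14 and 1.55. The number of arrays, not depth, limits the precision.

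Of 22716 probe sets, 90 controls were left out, and for each of 11807 genes the probe set of highest mean was kept. Names came from the platform annotation, updated by gene identifier. Values were quantile normalized as log2(intensity + 16) over all 12 arrays. limma 3.58.1 in R 4.3.3 fitted 1 mean per group with an intensity trend (6 residual and 3.29 prior degrees of freedom, or 5 and 4.39 without colon WT 2), with Benjamini-Hochberg adjustment. The fit was also run on simulated data in which 200 genes had been changed. Those data gave all groups the same spread in a gene, unlike the arrays. The run therefore cannot show how the fit with 1 WT array behaves. Figures were drawn with matplotlib 3.10.9.

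The named genes are Spdef, all genes called, the next 10 by p, the 10 with the widest gap between KO and the other colon arrays in each direction, and list members with large differences; any other gene was picked with its values in view. The members and the 27 gene lists were chosen with earlier results of these data known, and the comparisons with HET and with stomach were added after the data were seen. The settings varied were quantile normalization (left out), the offset (1 or 64), the filter, the trend, colon arrays fitted alone, every probe set, a replicate block and leaving out each array.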

Additional observations from a re-analysis of the deposited data

Results flagged for a closer look

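The KO minus WT difference was larger in colon than in stomach by 8.23 for Saa1 (SE 0.74) and by 9.15 for Saa2 (SE 0.82), each with an adjusted p of 0.00474 in limma, by the test of the difference between the tissues. With colon WT 2 left out, an alternative added after the data were seen, the values were 8.15 (adjusted p = 0.0128) and 8.52 (adjusted p = 0.0126). Both colon WT arrays were below the filter level of 6.53, so the fitted values depend on dim readings and are not bounds.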

How the results depend on the processing

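The array left out moved the count of called genes most. Against both WT arrays the count of 4 was 1 with an offset of 1, 2 with colon arrays fitted alone and 8 with every probe set tested, and between 3 and 978 when single arrays were left out: 978 without WT 1, 24 without WT 2, 34 without KO 1 and 6 without KO 2. Against WT 1 alone the count of 24 was 14 with no filter, 2 with colon alone, 55 with every probe set and 14 with the replicate block, and between 15 and 283 with 1 array left out: 283 without KO 1, 174 without KO 2, 15 without HET 1 and 15 without HET 2. The replicate block gave 3 calls against both WT arrays. The deviations of same-numbered arrays correlated at 0.182 (KO and HET), -0.137 (KO and WT) and -0.022 (HET and WT), so the replicate numbers were not taken to pair the arrays. The count of 8 genes with both KO arrays outside the other colon arrays was 42 with an offset of 1 and 3 with an offset of 64, and between 11 and 209 with 1 array left out: 209 without KO 1, 51 without KO 2, 13 without WT 1 and 23 without WT 2. The cause of these shifts was not tested.

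Leaving out WT 2 or WT 1, the KO minus WT difference ran from -1.78 to 0.88 for Hgfac (adjusted p = 0.0245 without WT 1), -1.80 to 0.42 for Spdef, -1.48 to 0.30 for Man1b1, -1.30 to 0.18 for Ccl9, -1.53 to 0.16 for Gfpt1, -1.42 to 1.21 for Elapor1 (adjusted p = 0.00803 without WT 1, and 0.0003 as the difference without KO 1), -1.94 to 0.71 for Cxcl14, -0.88 to 0.24 for Smim14 and -1.46 to 0.23 for Slc25a23, positive in each without WT 1. Saa1, Saa2 and Cgref1 kept their call in 14 of 15 alternatives each, with adjusted p up to 0.0947, 0.0947 and 0.175. Of 27 list medians, 16 changed sign in at least 1 alternative, the goblet cell median among them (-0.64 to 0.26), and 11 did not.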
